A study of Mus musculus with 6 samples.

Results

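The genes described here are 9 secreted or membrane modulators of bone morphogenetic protein (BMP) signals, namely Chrdl1, Bmper, Chrd, Nog, Grem1, Twsg1, Fst, Fstl1 and Bambi. They were chosen by gene symbol, each had 1 probe set, and they are 9 of 24973 probe sets on the arrays. RNA was measured in ventral aortic tissue, cut from below the dorsal aorta, and in dorsal aortic tissue, cut between the aortic roof and the notochord. Both came from C57Bl/6 embryos at embryonic day 11.5, were taken from 20 µm cryosections by laser microdissection, and were profiled on 3 arrays each, labelled as biological replicates 1 to 3. No treatment or mutation is involved, and the labels do not say how many embryos or sections went into an array. The series concerns the tissue around the aorta as a niche for hematopoietic stem cells, and the comparison asks which modulators differ between its ventral and dorsal sides.

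BMP ligands are secreted dimers that bring together receptor kinases at the cell surface. The receptors phosphorylate Smad proteins, which then enter the nucleus and regulate target genes. Most of the genes described here encode secreted proteins that bind the ligands and keep them from their receptors, or release them again. BMP4 made by mesenchyme below the aorta is known as a signal to the hematopoietic cells that emerge there, and the notochord and the sclerotome are known sources of BMP antagonists in the embryo.

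By the sign of the difference, tested sclerotome genes were on the dorsal side and most visceral mesenchyme genes on the ventral side. The notochord list, described below, overlapped between the tissues. Of 10 sclerotome and early cartilage genes, 8 were bright enough to test, all had negative ventral minus dorsal differences, and 3 passed the test (Pax1, Chad and Col2a1). The mean level of that list was 4.86 to 5.02 on ventral arrays, against 6.14 to 6.66 on dorsal arrays (log2). Of 9 visceral mesenchyme and coelomic epithelium genes, 8 were tested, 7 had positive differences and 3 passed, higher in ventral tissue (Tcf21, Gata6 and Hlx). The mean level of this list was 5.94 to 6.90 on ventral and 4.75 to 5.28 on dorsal arrays. The exception was Foxf1, a forkhead factor of visceral mesenchyme, at 4.48, 6.67 and 5.85 on ventral replicates 1, 2 and 3, against 8.46, 8.15 and 5.52 on dorsal replicates 1, 2 and 3 (−1.71 ± 0.72, adjusted p = 0.468). Without the brightness filter described below, Tcf21 and Gata6 passed, while Pax1 (adjusted p = 0.0756), Chad (0.0647), Col2a1 (0.0816) and Hlx (0.0647) did not. Each sample is a mixture of cell types, so fewer cells of a type and less RNA per cell cannot be told apart in any value given here.

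**Figure D1:**
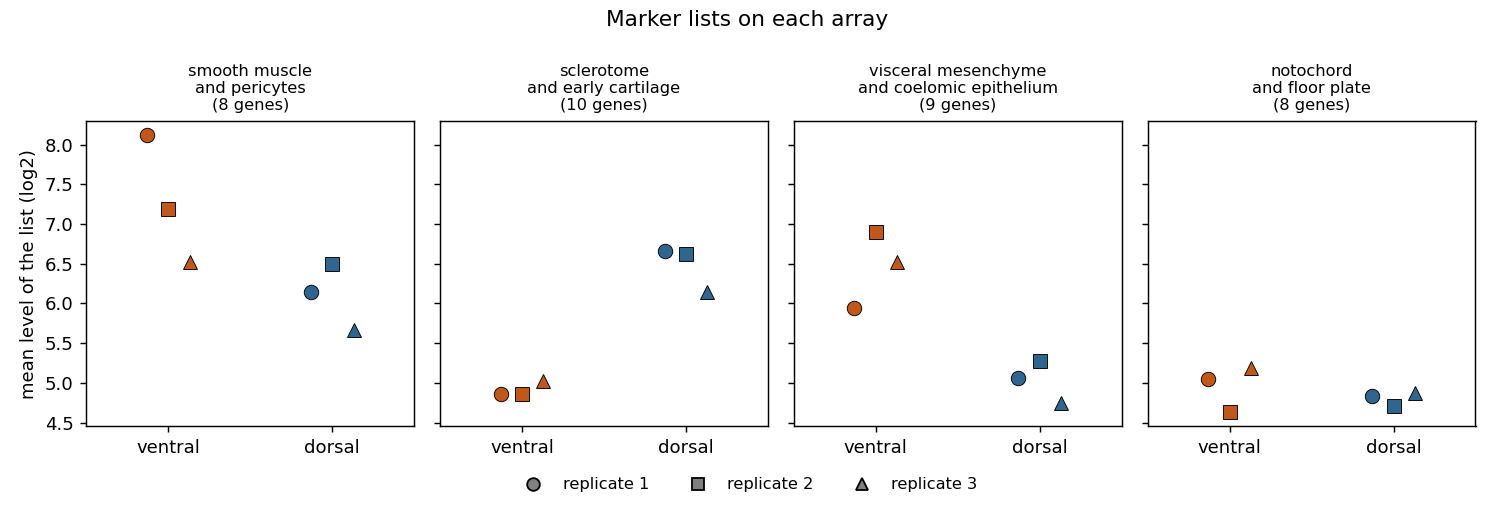
Mean level of 4 marker lists (log2, vertical axis) on each ventral and dorsal array, 1 symbol per replicate. The smooth muscle list is at 8.12 on ventral replicate 1 and between 5.66 and 7.19 on the other arrays, and the notochord list overlaps between the tissues.

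None of the 9 modulators passed the test between the tissues, and the differences nearest to it were those of Chrdl1 and Bambi, each with all 3 ventral arrays above all 3 dorsal arrays. A gene was tested if its mean over the 6 arrays reached the median of all probe sets, 4.52 (log2), which 7 of the 9 did, all but Chrd and Grem1. In limma with the replicate number as a block, 0 of these 7 passed an adjusted p of 0.05 over all genes tested, where 0.515% of the 12028 genes did. At an unadjusted p under 0.05, 3 of the 7 remained (Chrdl1, Bambi and Twsg1), against 10.7% of all genes tested. Without the replicate block it was 2 of the 7 (Chrdl1 and Bambi), against 10.1% of all genes tested. The arrays of the tissues did not overlap for 2 of the 7, against 15.4% of all genes tested. Fitted without the brightness filter, 0 of the 9 passed, where 0.0416% of 24015 named probe sets did, and 4 of the 9 had an unadjusted p under 0.05 (8.12% of all). Of the 9 differences in that fit, 6 were positive and 3 negative, with a median of 0.11 on the log2 scale, against 0.0028 for all named probe sets.

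**Figure D2:**
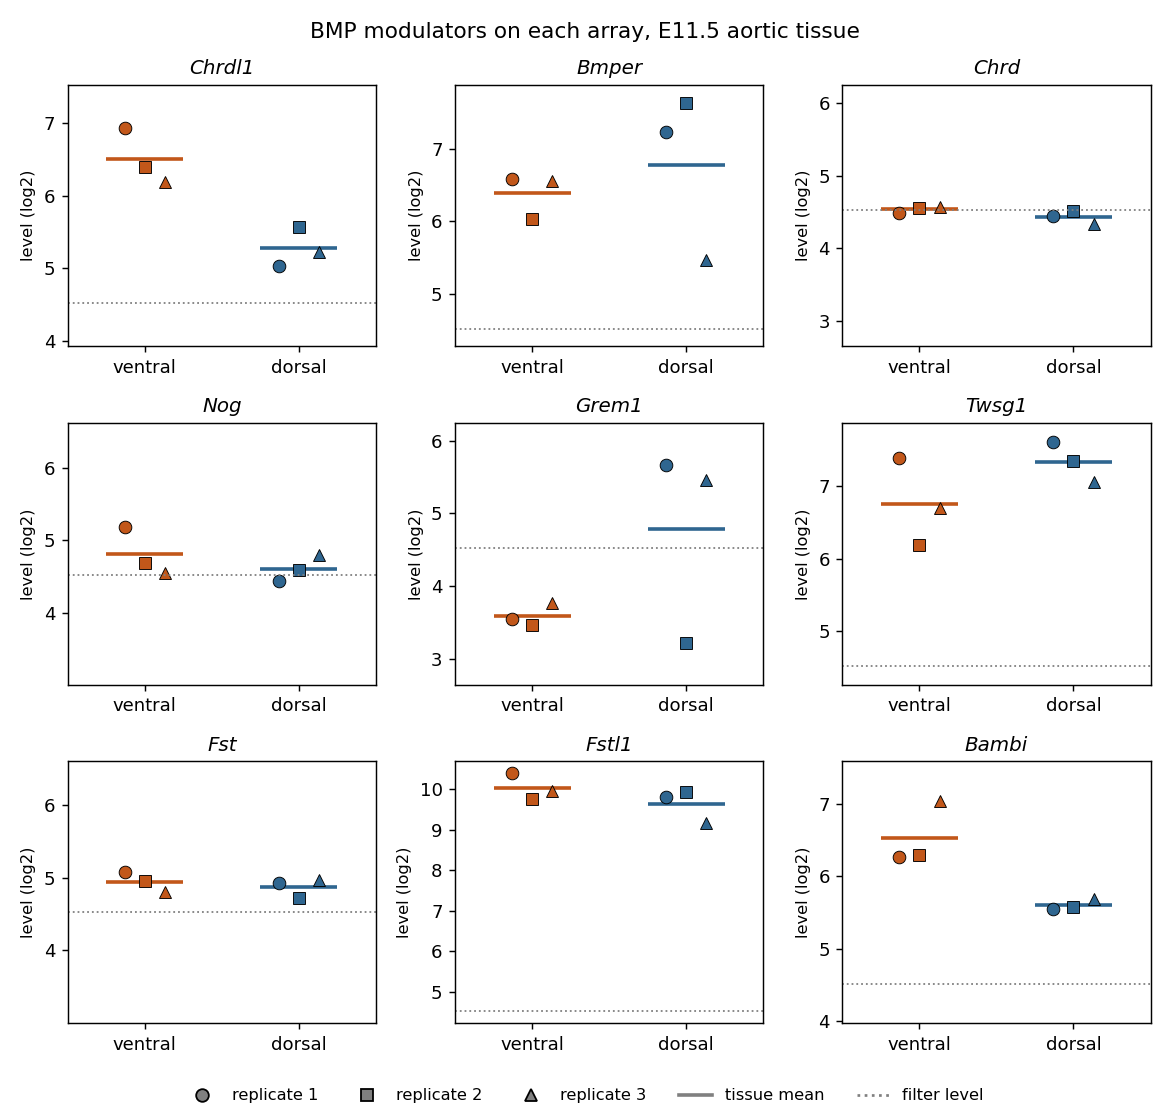
Level of each modulator (log2, vertical axis, the same span per panel except for Fstl1) on the 3 ventral and 3 dorsal arrays, 1 symbol per replicate, with the tissue mean as a bar and the filter level of 4.52 as a dotted line. Chrdl1 and Bambi have no overlap between the tissues, while Grem1 and Bmper each have 1 dorsal array far below the other dorsal arrays.

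Chrdl1 encodes a secreted relative of chordin that binds BMP ligands through cysteine-rich repeats. Its level was 6.93, 6.40 and 6.19 (log2) on ventral replicates 1, 2 and 3, against 5.04, 5.57 and 5.22 on dorsal replicates 1, 2 and 3. The lowest ventral array was 0.616 above the highest dorsal array, and ventral replicate 1 was the highest of all. The means were 6.51 ± 0.38 in ventral and 5.28 ± 0.27 in dorsal tissue (SD, n = 3 each), a ventral minus dorsal difference of 1.23 ± 0.25 (SE), that is 2.34-fold. Its 95% interval was 0.63 to 1.83 on the log2 scale, or 1.54-fold to 3.56-fold, and limma's adjusted p was 0.134. The difference was 1.89 in pair 1, 0.83 in pair 2 and 0.97 in pair 3. All pairs thus had the same sign, and the adjusted p ranged from 0.0992 to 0.301 over 9 alternatives.

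The gene whose levels were most like those of Chrdl1 over the 6 arrays was Srf, a transcription factor of muscle and growth-response genes, with a Pearson r of 0.993. It was followed by Tpm2, a tropomyosin of muscle (r = 0.989), and Fcgr3, an immunoglobulin receptor of myeloid cells (r = 0.987). The points share 6 arrays in 2 tissues, and 42 of the genes tested had an r over 0.95. The 8 smooth muscle and pericyte markers averaged 8.12, 7.19 and 6.52 on ventral replicates 1, 2 and 3, against 6.15, 6.50 and 5.66 on dorsal replicates 1, 2 and 3. All 8 were above the filter level and had positive differences, 1 of which passed (Rgs5, adjusted p = 0.0258). Rgs5 did not pass without the replicate block (adjusted p = 0.0732) or without the brightness filter (0.106). The list was therefore highest on the array where Chrdl1 was highest, and its part in the Chrdl1 difference was not tested.

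Bmper encodes a secreted protein with cysteine-rich repeats, the relative of Drosophila crossveinless-2, which can restrain or promote BMP signals and is known in endothelial cells. Its level was 6.58, 6.03 and 6.56 on ventral replicates 1, 2 and 3, against 7.23, 7.64 and 5.46 on dorsal replicates 1, 2 and 3. The ventral arrays lay close together, and the dorsal arrays lay on either side of them, replicate 3 below and the others above. The difference was −0.39 ± 0.47 (adjusted p = 0.855), with a 95% interval of −1.52 to 0.75, which leaves room for a difference of 2-fold or more on the dorsal side. It was −0.65, −1.61 and 1.10 in pairs 1, 2 and 3, and 0.23 without replicate 2, where the sign was the opposite one.

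Chrd encodes chordin, the founding member of this family, which holds BMP ligands until a protease cleaves it. Its level was 4.49, 4.56 and 4.57 on ventral arrays, against 4.45, 4.52 and 4.33 on dorsal arrays (replicates 1, 2 and 3). All 6 values lay in a narrow band around the filter level, where arrays compress differences, and the tissues overlapped. In the fit without the filter the difference was 0.11 ± 0.14, with a 95% interval of −0.24 to 0.46 (adjusted p = 0.909).

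Nog encodes noggin, which binds BMP ligands tightly and covers their receptor contacts. Its level was 5.18, 4.68 and 4.56 on ventral arrays, against 4.45, 4.59 and 4.80 on dorsal arrays (replicates 1, 2 and 3). Ventral replicate 1 was the highest, and the other arrays of both tissues were mixed in order. The difference was 0.20 ± 0.23, with a 95% interval of −0.36 to 0.75 (adjusted p = 0.848), and it was −0.074 without replicate 1 and 0.41 without replicate 3.

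Notochord cells are a known source of both chordin and noggin, and the dorsal cut borders on the notochord. Of 9 notochord and floor plate markers, 8 had a probe set, and 5 of them were above the filter level. Noto, Foxa2 and Cdx2 were below it, and T is not analysed here. The mean level of the list was 4.63 to 5.19 on ventral arrays, against 4.71 to 4.88 on dorsal arrays, so that the tissues overlapped. That mean pools members of opposite sign. Foxa1, a forkhead factor of notochord and endoderm, was at 4.78, 4.79 and 4.27 on ventral arrays, against 5.23, 5.16 and 5.52 on dorsal arrays, with no overlap (−0.69 ± 0.23, adjusted p = 0.348). The differences of the keratin genes Krt8, Krt18 and Krt19, also active in other epithelia, were 0.40, 1.01 and 0.64, none of which passed. The signalling gene Shh had a mean of 4.40 ± 0.19 on ventral and 4.77 ± 0.37 on dorsal arrays, a difference of −0.36 ± 0.25 that did not pass (adjusted p = 0.686).

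Grem1 encodes gremlin, a secreted antagonist of BMP ligands known from limb buds and the kidney. Its level was 3.55, 3.46 and 3.76 on ventral replicates 1, 2 and 3, against 5.67, 3.21 and 5.46 on dorsal replicates 1, 2 and 3. The dorsal arrays of replicates 1 and 3 were well above every ventral array, and the dorsal array of replicate 2 was the lowest of all 6. The means were 3.59 ± 0.15 in ventral and 4.78 ± 1.36 in dorsal tissue. In the fit without the filter the difference was −1.19 ± 0.47, with a 95% interval of −2.38 to −0.01 and an adjusted p of 0.611.

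The call on Grem1 turned on that pair and on the filter. Without replicate 2, the pair of opposite sign, its mean reached the filter level through the dorsal arrays alone, and it passed as higher in dorsal tissue with a difference of −1.91 ± 0.26 (limma, adjusted p = 0.0389), where 0.367% of 12001 genes passed. Without replicate 2 and without the filter, a setting added after the data were seen, the difference was the same and the adjusted p was 0.187, where 0.00416% of 24015 named probe sets passed. Dorsal replicate 2 did not stand apart on the sclerotome list, at 6.63 against 6.66 and 6.14 on dorsal replicates 1 and 3. It had the highest dorsal levels of the smooth muscle list (6.50) and the endothelial list (6.12, against 5.48 and 5.68 on replicates 1 and 3). The same held for the visceral mesenchyme (5.28), neuron and neural crest (6.48), and blood and macrophage (6.32) lists. On the notochord list it was the lowest dorsal array (4.71, against 4.83 and 4.88 on replicates 1 and 3). The part of these in the Grem1 values was not tested.

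Twsg1 encodes a secreted protein that joins BMP ligands and chordin in a complex and can act for or against the signal. Its level was 7.39, 6.19 and 6.70 on ventral replicates 1, 2 and 3, against 7.61, 7.35 and 7.05 on dorsal replicates 1, 2 and 3. The ventral array was the lower in each pair, but ventral replicate 1 was above dorsal replicates 2 and 3, so that the tissues overlapped. The means were 6.76 ± 0.60 in ventral and 7.34 ± 0.28 in dorsal tissue, a difference of −0.58 ± 0.24, or 1.49-fold lower in ventral tissue. The 95% interval was −1.15 to −0.01 and the adjusted p was 0.456. Without the replicate block the interval was −1.29 to 0.13, which includes 0, and without replicate 2 the difference was −0.29. The gene most like Twsg1 over the 6 arrays was the folate carrier gene Slc19a1 (r = 0.992). The cortactin gene Cttn (r = 0.987) and Mir181b-1 (r = 0.985) followed, with 30 genes over an r of 0.95.

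Grem1 and Twsg1 had the most negative differences of the 9, so the 250 bases upstream of their starts are shown, as RefSeq gives them for GRCm38.p6, 5′ to 3′ along each gene. The window of Grem1 is chr2:113758649-113758898 and that of Twsg1 is chr17:65951188-65951437, both on the minus strand. Capitals mark 2 motifs searched on both strands, GGCGCC, a GC-rich site bound by BMP Smads, and CAGAC, a Smad box, which can overlap each other by a C.
Grem1: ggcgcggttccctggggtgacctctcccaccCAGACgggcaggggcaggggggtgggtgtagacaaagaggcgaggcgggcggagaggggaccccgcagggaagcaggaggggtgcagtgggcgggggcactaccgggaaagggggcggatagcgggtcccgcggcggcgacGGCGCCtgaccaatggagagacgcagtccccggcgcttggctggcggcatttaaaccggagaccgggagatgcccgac
Twsg1: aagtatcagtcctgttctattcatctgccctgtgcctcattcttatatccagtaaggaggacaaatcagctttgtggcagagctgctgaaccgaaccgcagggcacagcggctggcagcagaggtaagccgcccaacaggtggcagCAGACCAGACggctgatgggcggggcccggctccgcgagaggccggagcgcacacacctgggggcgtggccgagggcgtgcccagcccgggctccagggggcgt
Grem1 holds 1 GGCGCC and 1 CAGAC, and Twsg1 holds 2 adjoining CAGAC and no GGCGCC. Of the 9 genes, 5 were matched in the promoter table (Bmper, Chrd, Fstl1, Grem1 and Twsg1). The window of Chrd, chr16:20732877-20733126, lies inside the gene, given as chr16:20731425-20742384, and not upstream of its first base. GGCGCC was found in 2 of the 5 (Grem1 and Chrd) and in 9.59% of 32851 promoter windows of this length. CAGAC was found in 2 of the 5 and in 42.2%. These windows are rich in G and C, at 64.4% to 78.0% in the 5 genes, and a match describes letters only.

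Fst encodes follistatin, which binds activins tightly and several BMP ligands more weakly. Its level was 5.08, 4.96 and 4.80 on ventral arrays, against 4.93, 4.73 and 4.97 on dorsal arrays (replicates 1, 2 and 3). The 6 arrays lay within a narrow range and the tissues overlapped. The difference was 0.07 ± 0.18, with a 95% interval of −0.36 to 0.51 (adjusted p = 0.941). It was −0.0085 without replicate 2, where the sign was the opposite one, and 0.19 without replicate 3.

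Fstl1 encodes a follistatin-like glycoprotein that binds BMP ligands and is needed in lung and ureter development of the mouse. Its level was 10.4, 9.77 and 9.96 on ventral arrays, against 9.81, 9.94 and 9.17 on dorsal arrays (replicates 1, 2 and 3). Ventral replicate 1 was the highest and dorsal replicate 3 the lowest, and the other arrays overlapped. The difference was 0.40 ± 0.24, with a 95% interval of −0.16 to 0.97 (adjusted p = 0.627). It was 0.69 ± 0.25 without replicate 2 and 0.21 ± 0.28 without replicate 3, and neither passed.

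Bambi encodes a membrane protein that resembles a receptor of the BMP and TGF-beta families but lacks the kinase, and its gene is itself known to respond to BMP. Its level was 6.26, 6.29 and 7.04 on ventral replicates 1, 2 and 3, against 5.54, 5.58 and 5.68 on dorsal replicates 1, 2 and 3. The dorsal arrays were close together, the lowest ventral array was 0.577 above the highest of them, and ventral replicate 3 was the highest. The means were 6.53 ± 0.44 in ventral and 5.60 ± 0.07 in dorsal tissue, a difference of 0.93 ± 0.21, or 1.90-fold (95% interval 1.35-fold to 2.68-fold; adjusted p = 0.168). The difference was 0.71 in pairs 1 and 2 and 1.36 in pair 3. Over 9 alternatives the adjusted p ranged from 0.156 to 0.400.

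Bambi-ps1, a pseudogene of Bambi on chromosome 2, has a probe set of its own, and the probes of the pair may share signal. Bambi-ps1 was at 6.06, 5.53 and 5.86 on ventral arrays, against 5.63, 5.32 and 5.22 on dorsal arrays (replicates 1, 2 and 3), with a difference of 0.43 ± 0.18 (adjusted p = 0.468). Its tissues overlapped, unlike those of Bambi. The genes most like Bambi over the 6 arrays were the potassium channel gene Kcnj2 (r = 0.995), the autophagy receptor gene Sqstm1 (r = 0.992) and the glutamate receptor gene Gria3 (r = 0.987), with 55 genes over an r of 0.95. Kcnj2 had a difference of 2.05 (adjusted p = 0.0854) and Gria3 one of 1.59 (adjusted p = 0.0966), neither of which passed.

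**Figure D3:**
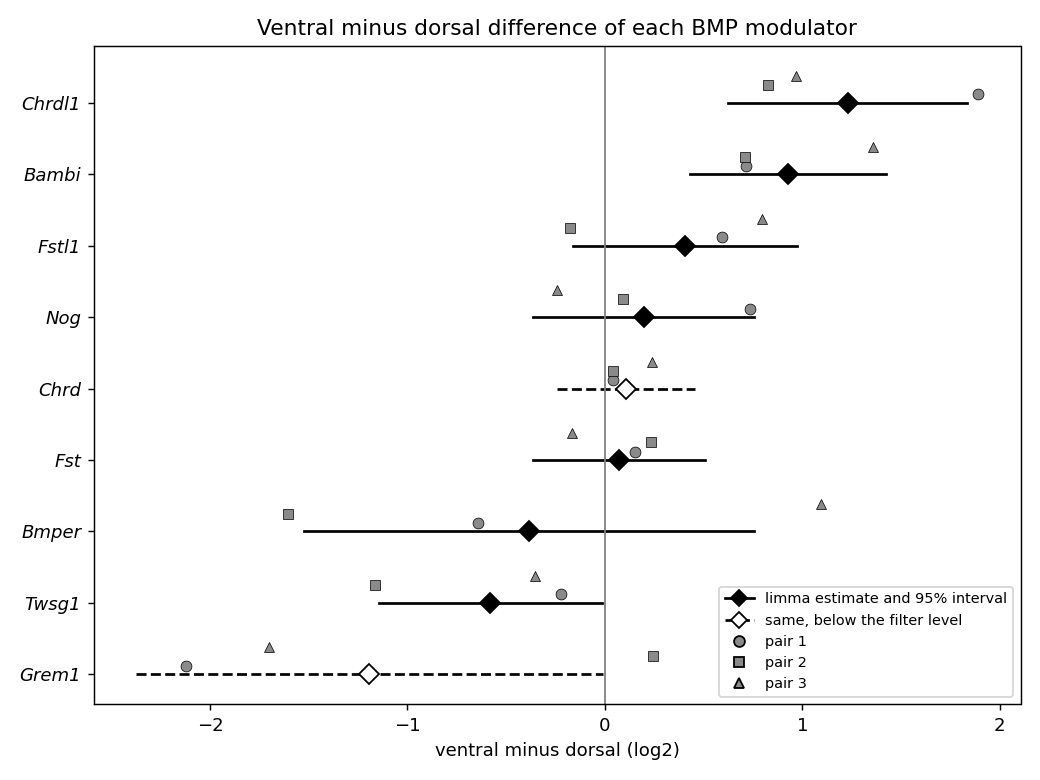
Ventral minus dorsal difference of each modulator (log2, horizontal axis) as the limma estimate with its 95% interval, and the difference of each same-numbered pair as a grey symbol above it. Open symbols with dashed lines are Grem1 and Chrd, fitted without the brightness filter. All pairs lie above 0 for Chrdl1, Bambi and Chrd and below 0 for Twsg1, and the pairs of the other 5 lie on both sides.

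Pairs here are arrays of the same replicate number, which the labels do not tie to an embryo. By pair, 3 of the 9 modulators were higher on the ventral array in every pair (Chrdl1, Bambi and Chrd), Twsg1 was lower in every pair, and the pairs of the other 5 had both signs. Of the 7 tested, 2 were higher in ventral tissue in every pair (Chrdl1 and Bambi), against 15.3% of all genes tested. The 9 genes thus did not share a direction. Pair 2 was the one that differed in sign for Grem1 and Fstl1, and pair 3 the one for Bmper, Nog and Fst.

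In the rest of the pathway, 1 of 50 tested genes passed, higher in ventral tissue, where 0.308% of all genes tested passed in that direction. That gene was Dcn, which encodes decorin, a matrix proteoglycan that binds TGF-beta. Dcn was at 8.48, 8.67 and 9.57 on ventral replicates 1, 2 and 3, against 6.81, 6.78 and 6.71 on dorsal replicates 1, 2 and 3, with no overlap. The difference was 2.14 ± 0.26, or 4.40-fold (adjusted p = 0.0357). Dcn did not pass without the filter (adjusted p = 0.119), without replicate 2 (0.0513) or without replicate 3 (0.0563).

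Of 17 tested extracellular modulators beyond the 9, 8 had positive and 9 negative differences, with a median of −0.03, against −0.01 for all genes tested. The most negative was Rgmb, a membrane-anchored BMP co-receptor, at 6.80, 6.53 and 5.73 on ventral arrays, against 7.52, 6.94 and 6.82 on dorsal arrays (difference −0.74 ± 0.20, adjusted p = 0.247). Its arrays did not overlap, with dorsal above ventral. Of 18 ligand genes 8 were tested, 0 passed, and the median was 0.05. Gdf6, a BMP-type ligand, was at 5.04, 5.82 and 5.52 on ventral arrays, against 4.35, 4.04 and 4.36 on dorsal arrays (1.21 ± 0.24, adjusted p = 0.129). It was the ligand with the highest difference, and its arrays did not overlap. At the other end, Bmp7 averaged 5.82 ± 0.45 in ventral and 6.58 ± 0.45 in dorsal tissue (−0.76 ± 0.33, adjusted p = 0.488). Bmp4 averaged 7.47 ± 0.42 in ventral and 6.83 ± 0.35 in dorsal tissue (0.64 ± 0.28, adjusted p = 0.486). It was higher on the ventral array in every pair, but the tissues overlapped. The same held for Bmp5, with a larger difference than Bmp4 (0.66 ± 0.17, adjusted p = 0.216).

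Among the receptors for these ligands, 0 of 6 tested genes passed, with a median of 0.02, from −0.62 ± 0.21 for the activin receptor gene Acvr2a (adjusted p = 0.348) to 0.16 ± 0.25 for the BMP receptor gene Acvr1 (adjusted p = 0.889). Of 10 Smad signal transducers and their ubiquitin ligases, all were tested, 0 passed and the median was 0.10. The inhibitory Smad6 had the highest difference (0.77 ± 0.18, adjusted p = 0.189), and Smad4, the partner shared by the BMP and TGF-beta branches, the lowest (−0.10 ± 0.23, adjusted p = 0.932). Of 9 tested response genes 0 passed and the median was 0.13. Id3 had the highest difference of these, with 8.71 ± 0.27 in ventral and 8.05 ± 0.49 in dorsal tissue (0.66 ± 0.19, adjusted p = 0.279). Id4, a relative of it, had the lowest, with 4.99 ± 0.08 in ventral and 6.04 ± 1.01 in dorsal tissue (−1.05 ± 0.39, adjusted p = 0.406).

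**Figure D4:**
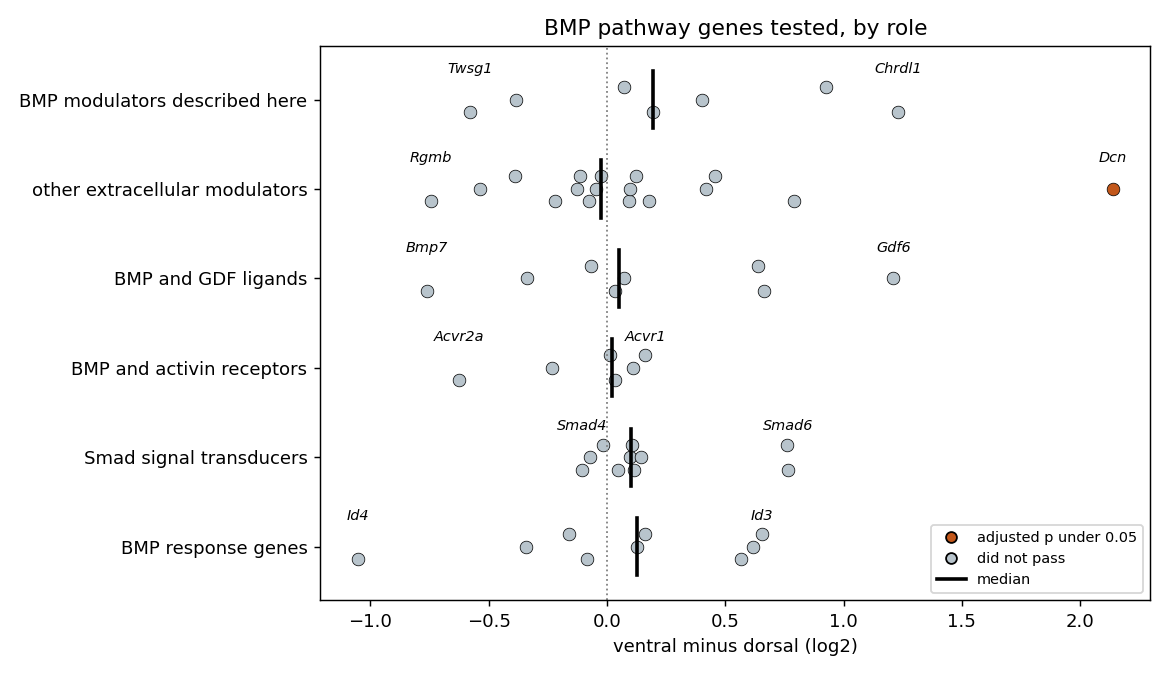
Ventral minus dorsal difference (log2, horizontal axis) of each tested gene of the BMP pathway, by role, with the list median as a bar and the lowest and highest gene named. Dcn, at 2.14, is the only one of these genes that passed the test.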

How the data were processed

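Per the labels' protocols, 200 to 1000 pg of total RNA was amplified by the Ovation Pico system, labelled with biotin and put on Affymetrix Mouse Gene ST arrays. Amplification from so little RNA can distort ratios of weak transcripts. The authors deposited a log2 level for each probe set on each array. Affymetrix Expression Console and RMA are named in the submitters' processing notes. RMA corrects background, equalises the arrays' distributions and summarises probes. Tool versions and the build were not given in the sources used here. Array medians ran from 4.49 to 4.55, and precision is limited by there being 6 arrays.

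A single symbol was available for 24015 of 24973 probe sets in the platform table, and 23922 of these were brought up to date through a RefSeq gene table of GRCm38.p6. Ventral minus dorsal was fitted with limma 3.58.1 under R 4.3.3, by lmFit and eBayes with no variance trend, and with a fixed term for the replicate number. Tests were two-sided, with Benjamini-Hochberg adjustment over the 12028 genes whose mean was at or above 4.52. In this main fit each test had 6.41 degrees of freedom, 4.41 of which came from the prior. The fits without the filter or the block had their own degrees of freedom. Adjusted p-values and SE are limma's moderated ones, and each SD was taken over 3 arrays. The script was tested on simulated data.

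The block was used because, per the labels, ventral and dorsal tissue came from the same embryos, though a number is not said to mark an embryo. After removal of the tissue means, arrays of the same number correlated by 0.0992, 0.0763 and 0.226 (numbers 1, 2 and 3) and arrays of different numbers by −0.153 to 0.0805, so that number 2 lay below the highest of the differently numbered values and the correlations do not establish the pairing. If arrays pooled embryos, p-values measure the spread between pools.

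The genes, the lists and the tests were chosen with earlier results of these data known. Named genes are the 9 modulators, every other pathway gene that passed, the highest and the lowest difference of each list, and the markers. Bmp4, Bmp5 and Bambi-ps1 were named outside these rules, as were Bmpr1b and Smad7, which were noticed after their values were seen. Also named are the 3 genes with the highest Pearson r with each of the 3 tested modulators of greatest absolute difference. Alternatives were the fit without the block, no filter, a filter on 3 of 6 arrays and a shift to the same median. Cyclic loess, a variance trend and leaving out each pair were the others. For Chrd and Grem1, fits without the filter and also without the block or a pair were added after the data were seen.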

Additional observations from a re-analysis of the deposited data

How the results depend on the processing

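Of 72 refits of the 9 modulators, 68 kept the sign and the side of the threshold. Many of these refits could not have turned a sign. Changing only the block, the brightness filter or the variance trend left each estimate as it was. In the main setting 0.515% of all genes tested passed, so staying on the same side of the threshold was the likely outcome. The count of 68 therefore says little about how firm the differences are. The sign turned for Bmper without replicate 2 (0.23; −1.13 to 0.23 over the pairs left out), for Nog without replicate 1 (−0.074; −0.074 to 0.41) and for Fst without replicate 2 (−0.0085; −0.0085 to 0.19), and none of these passed. Grem1 passed without replicate 2 (−1.91), where it reached the filter level. Modulators that passed numbered 0 in every alternative except those leaving out a pair, where they ranged from 0 to 1. Without the replicate block 0 modulators passed and the adjusted p of Chrdl1 was 0.0992, while 59 of all genes passed, against 62 with the block, 45 of them shared. Of all genes, 10 passed without the brightness filter, where 24015 were tested, and 94 with a variance trend. Leaving out a pair gave 43 to 83. Of the other pathway genes, 1 passed in the main setting, 0 without the filter, and 0 to 1 when a pair was left out. The cause was not tested. Grem1 and Chrd lay below the filter level on average, where arrays resolve little.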

Other observations

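Some genes of the lists above were noticed only after their values were seen. Dorsal replicate 3 of Foxf1 (5.52) was well below its other dorsal arrays, as was that of Bmper (5.46). That array was also the lowest dorsal array on the sclerotome (6.14) and smooth muscle (5.66) lists. The visceral mesenchyme list includes Foxf1 itself, so its level there (4.75) is not separate from the Foxf1 value. Dorsal replicate 3 was the highest dorsal array on the notochord list (4.88) and lay between the others on the endothelial list (5.68). The part of these in the Foxf1 and Bmper values was not tested. Bmpr1b, a BMP receptor gene below the filter level, was at 3.62, 4.46 and 3.50 on ventral arrays, against 5.19, 4.85 and 4.67 on dorsal arrays, with no overlap. In the fit without the filter its adjusted p was 0.376 (unadjusted p = 0.00775, where 8.12% of all named probe sets had one under 0.05). Smad7, an inhibitory Smad gene, was at 7.53, 7.08 and 7.45 on ventral arrays, against 6.69, 6.35 and 6.75 on dorsal arrays, with no overlap and an adjusted p of 0.168.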
